A study of Mus musculus with 38 samples.

Results

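Caveolins and cavins are the proteins that shape and coat caveolae, the flask-like pits of the plasma membrane, and 8 genes of this coat are described here: the caveolins Cav1, Cav2 and Cav3, the cavins Cavin1, Cavin2, Cavin3 and Cavin4, and Ehd2. The members were taken by symbol from a table of 35682 mouse genes, and each of the 8 had a row. The family was selected on the fall of Cav2 in endothelial cells (ECs) after acute myocardial infarction (AMI). The difference between Control-AMI and Sham ECs is therefore given for every member as a description, without a p-value, the count past the threshold there is part of the selection and supports nothing, and Cav2 is given without a test in every comparison that uses EC libraries.

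Caveolin monomers assemble in the membrane into disc-like oligomers, and cavin trimers polymerize around them on the cytosolic side to give the bulb its curvature. Cav1 and Cav2 form hetero-oligomers in most non-muscle cells, where Cav2 needs Cav1 to leave the Golgi, and Cav3 takes the place of Cav1 in striated muscle. Cavin1 is required for caveolae in every tissue, Cavin4 is restricted to muscle, and Ehd2 is an ATPase that holds the neck of the pit at the cell surface. Caveolae are abundant in the capillary endothelium of the heart, where they buffer membrane tension and bind endothelial nitric oxide synthase, and in cardiomyocytes they sit at the sarcolemma and near the T-tubules.

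Male C57BL/6 mice 8 to 12 weeks old received vehicle (5% dimethylsulfoxide in saline) or empagliflozin (EMPA, an inhibitor of sodium-glucose cotransporter 2) at 10 mg/kg/day by mouth for 6 weeks. Control-AMI mice (vehicle) and EMPA–Pre-AMI mice (EMPA) then had 30 minutes of ischemia by ligation of the left anterior descending artery and 2 hours of reperfusion. Sham mice (vehicle) had the operation without ligation, and no sham group received EMPA, so the drug was studied only together with infarction. Each of the 38 libraries held RNA from 2 pooled hearts. Cardiomyocytes (CMs) were pelleted at low speed and not sorted, ECs were sorted as CD45- CD31+ cells, and fibroblasts (FBs) as CD45- CD31- CD90+ cells. Sham, Control-AMI and EMPA–Pre-AMI held 4, 5 and 4 CM libraries, 4, 4 and 5 EC libraries and 4, 4 and 4 FB libraries.

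Depth ran from 1352514 to 4509284 counts per library, and genes of the mitochondrial genome took 46.6% to 66.01% of the counts in CMs, 4.52% to 14.6% in ECs and 3.47% to 12.5% in FBs. Levels are CPM (counts scaled to a library of 1000000) on a scale set jointly over all 38 libraries. They are not compared between genes, because tags were counted at transcript 3′ ends. Between populations they depend on the joint scaling factors, which were 0.347 to 0.638 in CMs, 1.42 to 1.71 in ECs and 1.37 to 1.60 in FBs. Such factors take most genes as unchanged, whereas 6391 of 12085 genes differed between Sham ECs and Sham CMs by the test described below. The summed level of 10 cardiomyocyte markers was 39771 to 91682 CPM in CMs, 136 to 836 CPM in ECs and 66.5 to 498 CPM in FBs. The CM libraries also carried 1138 to 2656 CPM of 10 endothelial markers, against 4731 to 9872 CPM in ECs and 105.7 to 604 CPM in FBs. Summed fibroblast markers reached 468 to 4353 CPM in CMs and 11693 to 18095 CPM in FBs. In bulk libraries, fewer cells of a type and less RNA per cell cannot be told apart.

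Cav2 and Cav1 lie next to each other on mouse chromosome 6 in the same orientation (GRCm39, GENCODE vM39). Cav2 spans chr6:17281026-17289877 and Cav1 chr6:17306140-17341451, both on the plus strand, with 16262 bases between them. Cav3 lies far from the pair at chr6:112436466-112449833 (plus strand). Cavin1 spans chr11:100847559-100861713 (minus strand), Cavin2 chr1:51328266-51345710 (plus strand), Cavin3 chr7:105128391-105131507 (minus strand), Cavin4 chr4:48663503-48674045 (plus strand) and Ehd2 chr7:15680874-15701629 (minus strand). The annotation places 7 other transcript units, all on the opposite strand, over 6 of the members, and none of the 7 had a row in the count table. The 3′ end of Cav3 stops 811 bases short of Oxtr on the opposite strand.

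The promoters of the neighbours Cav2 and Cav1 and of the muscle members Cav3 and Cavin4 are printed because the first pair led the endothelial pattern and the second pair the cardiomyocyte pattern. Each runs from 250 bases before to 50 bases from the start of the Ensembl canonical transcript, 5′ to 3′ on the gene's strand, in GRCm39 read from the reference genome. Capitals mark an E-box (CANNTG), a GC box (GGGCGG) or a TATA box (TATAAA), each searched on both strands. The E-box was in 70.6% of 21757 protein-coding promoters of this length, the GC box in 42.5% and the TATA box in 13.2%.
Cav2 promoter, chr6:17280934-17281233, plus strand: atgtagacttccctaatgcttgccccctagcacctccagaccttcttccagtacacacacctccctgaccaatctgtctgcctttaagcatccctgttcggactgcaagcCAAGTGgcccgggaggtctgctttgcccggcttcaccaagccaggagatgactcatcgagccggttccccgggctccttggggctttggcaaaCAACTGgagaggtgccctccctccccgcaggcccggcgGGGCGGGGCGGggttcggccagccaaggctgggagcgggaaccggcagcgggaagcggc
Cav1 promoter, chr6:17305890-17306189, plus strand: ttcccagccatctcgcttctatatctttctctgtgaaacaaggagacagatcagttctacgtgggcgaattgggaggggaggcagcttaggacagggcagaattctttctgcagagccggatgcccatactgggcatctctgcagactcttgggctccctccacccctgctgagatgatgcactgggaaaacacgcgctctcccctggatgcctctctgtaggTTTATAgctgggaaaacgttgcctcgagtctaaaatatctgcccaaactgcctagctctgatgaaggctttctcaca
Cav3 promoter, chr6:112436216-112436515, plus strand: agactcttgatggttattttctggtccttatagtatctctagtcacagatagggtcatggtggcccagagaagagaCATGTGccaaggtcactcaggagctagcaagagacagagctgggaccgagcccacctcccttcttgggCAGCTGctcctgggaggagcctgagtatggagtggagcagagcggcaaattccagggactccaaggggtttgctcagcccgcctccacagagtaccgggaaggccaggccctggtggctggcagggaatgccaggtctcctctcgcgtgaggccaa
Cavin4 promoter, chr4:48663253-48663552, plus strand: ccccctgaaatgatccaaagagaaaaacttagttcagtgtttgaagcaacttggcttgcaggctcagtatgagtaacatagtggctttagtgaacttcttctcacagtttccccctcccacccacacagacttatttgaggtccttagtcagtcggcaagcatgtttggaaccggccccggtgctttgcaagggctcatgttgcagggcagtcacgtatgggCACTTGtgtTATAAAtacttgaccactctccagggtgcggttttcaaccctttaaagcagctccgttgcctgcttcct
The windows of the adjacent genes had little in common. The Cav2 window held 64.3% G and C, 16 CpG dinucleotides, 2 E-boxes and 2 overlapping GC boxes, and the Cav1 window held 52.3% G and C, 8 CpG dinucleotides and 1 TATA box on the opposite strand. The muscle members each held an E-box, 2 in Cav3 and 1 in Cavin4, and the Cavin4 window also held a TATA box. Over all promoters the medians were 54.3% G and C and 11 CpG dinucleotides. No MEF2 site (the consensus of the muscle factor MEF2) and no GATAAG was found in the window of any of the 8 members, where 2.96% and 7.15% of all promoters had 1 or more. Such letters describe a sequence, and binding was not measured.

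The first comparison asked in which cells of the uninjured heart each member was found. ECs had the highest Sham levels of Cav1, Cav2, Cavin2 and Ehd2, CMs had nearly all of Cav3 and Cavin4, FBs had the highest Cavin3, and Cavin1 was abundant in all 3 populations. With Cav2 set aside, 5 of 7 members were higher and 2 were lower in Sham ECs than in Sham CMs (edgeR quasi-likelihood test, Benjamini-Hochberg false discovery rate [FDR] below 0.05), where 24.8% of all 12085 genes tested were higher and 28.1% lower. Between Sham ECs and Sham FBs, 4 of these 7 were higher in ECs and 2 lower, against 17.6% and 20.2% of all genes. Between Sham FBs and Sham CMs, where all 8 could be tested, 1 was higher in FBs and 5 were lower, against 22.7% and 24.5%. Cavin4 was too low to be fitted in ECs or FBs alone and passed the filter of the joint fit through its CM counts. Cav3 was too low to be fitted in ECs alone. Calls of Cavin4 against CMs and of Cav3 in ECs, which are among these counts, follow from the filter and support nothing. These 3 comparisons share libraries in pairs. The populations also differed in sample-sheet run, described with the CM results. Sham CMs were of run 4, Sham ECs of runs 2 and 3, and Sham FBs of run 1 except replicate 1, of run 4. Sham ECs thus shared no run with the other Sham populations, and population and run can hardly be told apart. The mice of a group were fewer than separate hearts for all 3 populations would need, so libraries of different populations share animals that the labels do not tie together, and the tests between populations treat them as independent.

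**Figure D1:**
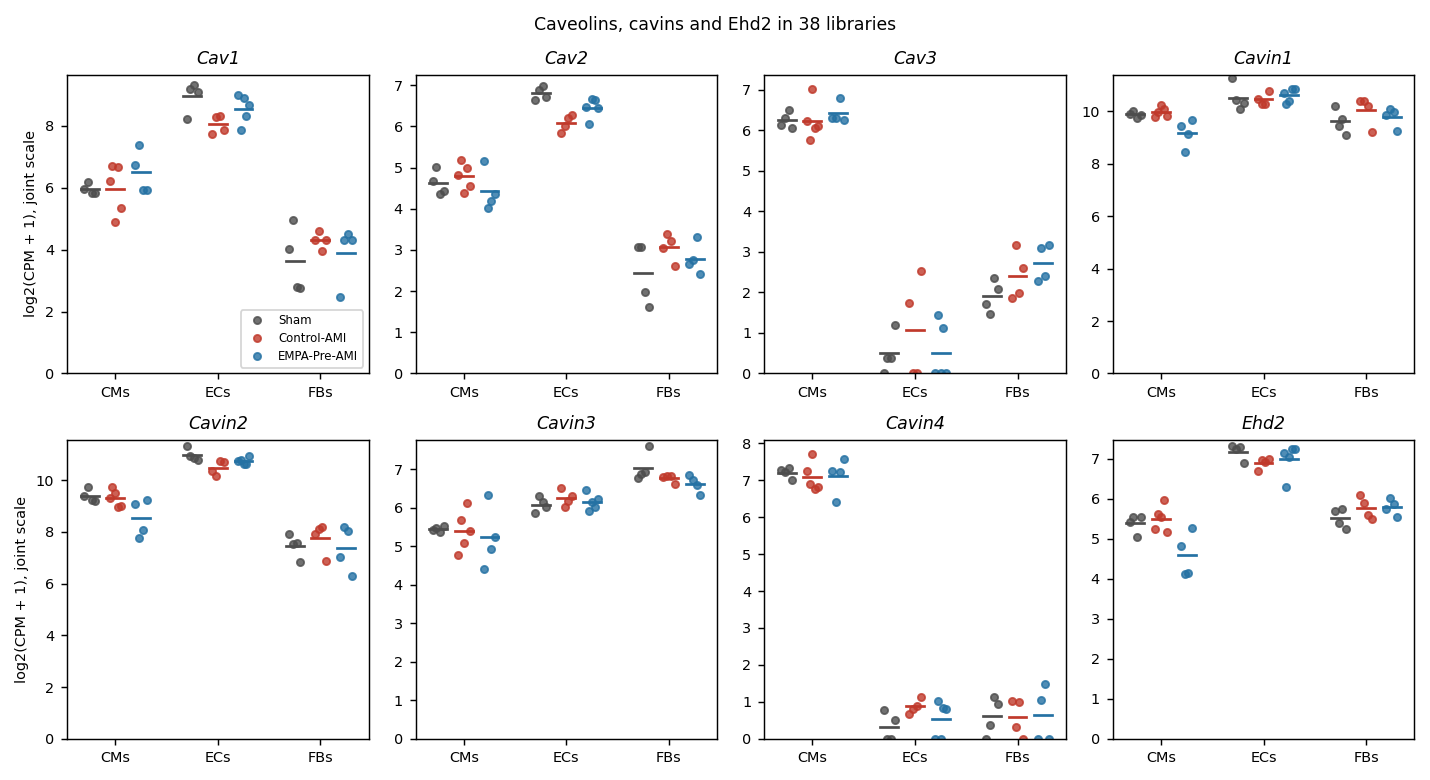
Level of each member in the 38 libraries, as log2(CPM + 1) on the joint scale, by population (CMs, ECs, FBs); points are libraries, colours are Sham, Control-AMI and EMPA–Pre-AMI, and bars are group means. Cav1, Cav2, Cavin2 and Ehd2 are highest in ECs, Cav3 and Cavin4 stand near the bottom of the axis outside CMs, and Cavin3 is highest in FBs.

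Cav1, the scaffold of non-muscle caveolae, was at 297, 577, 637 and 542 CPM in Sham EC replicates 1 to 4. The Sham CMs had 61.7, 71.1, 55.5 and 56.3 CPM, and the Sham FBs 15.3, 30.0, 5.91 and 5.77 CPM. The 3 populations did not overlap, and EC replicate 1 lay well under the other EC libraries. The log2 fold change was 3.07 ± 0.44 (SE) for ECs against CMs (FDR 5.05e-07), 5.18 ± 0.49 for ECs against FBs (FDR 1.62e-10) and -2.11 ± 0.45 for FBs against CMs (FDR 0.000241). In edgeR's quasi-likelihood fit all 10 endothelial markers were also higher in Sham ECs than in Sham CMs, by a median log2 fold change of 2.49. For every 100 counts of the endothelial list, Sham CMs held 3.60 ± 0.170 counts of Cav1 (SD, n = 4) and Sham ECs 5.47 ± 1.60 (n = 4), and the part of endothelial RNA in the CM value was not tested.

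Cav2 followed Cav1. Its Sham levels were 99.6, 117, 126 and 104 CPM in ECs, 24.4, 31.2, 19.5 and 20.7 CPM in CMs and 7.40, 7.36, 2.95 and 2.08 CPM in FBs, again without overlap between populations. The log2 fold change of FBs against CMs was -2.30 ± 0.30 (edgeR FDR 3.36e-08), and the descriptive differences of ECs from CMs and from FBs were 2.22 and 4.51. Per 100 endothelial-list counts, Cav2 stood at 1.39 ± 0.0905 in Sham CMs and 1.19 ± 0.122 in Sham ECs (SD, n = 4 each). The ranges met at their ends, 1.28 to 1.47 in CMs and 1.03 to 1.29 in ECs.

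Cav3, the caveolin of striated muscle, was at 69.4, 78.2, 89.1 and 66.04 CPM in Sham CMs. In Sham ECs it had 0, 1, 1 and 3 counts, no more than the floor of 3 counts in any library. In Sham FBs it had 9, 6, 14 and 14 counts, or 2.30, 1.77, 4.13 and 3.23 CPM, and every FB library lay above the CPM of the EC libraries. From the summed counts, Cav3 in Sham CMs was 174 times the EC level, with an exact 95% interval of 74.1 to 538 that covers counting error only, and 26.3 times the FB level (19.2 to 36.8). By edgeR it was lower in FBs than in CMs (FDR 1.29e-10). Cav3 was too low to be fitted in ECs alone, so its EC differences are descriptions. Their log2 fold changes were -7.44 against CMs and -2.72 against FBs. With a term for the position in the sample sheet, described with the CM results, the value against FBs was -1.67.

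Cavin4, the muscle cavin, was at 153, 148, 159 and 126 CPM in Sham CMs and at 0 to 2 counts in each Sham EC library. Sham FBs had 0, 1, 4 and 4 counts. The CM level was 563 times that of ECs (192 to 2733, over 3 EC counts) and 243 times that of FBs (128 to 534, over 9 FB counts). Cavin4 was too low to be fitted in ECs or FBs alone and passed the filter of the joint fit through its CM counts. No test of Cavin4 between populations is therefore read.

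The muscle members differed from each other in the fibroblasts. Over all 13 CM libraries Cav3 had 1426 counts and Cavin4 2576, a ratio of Cavin4 to Cav3 of 1.81 (exact 95% interval 1.69 to 1.93), and Cavin4 exceeded Cav3 in each of the 13. Over the 12 FB libraries Cav3 had 179 counts and Cavin4 25, a ratio of 0.140 (0.0880 to 0.213), and Cav3 exceeded Cavin4 in each of the 12. The 13 EC libraries had 33 and 19 counts. Per 1000 counts of the cardiomyocyte list, Cav3 stood at 1.13 ± 0.125 in Sham CMs and 16.7 ± 15.4 in Sham FBs (SD, n = 4 each), whereas Cavin4 stood at 2.19 ± 0.112 and 3.57 ± 5.12. The Cav3 counts of the FB libraries were not in the proportion to Cavin4 or to the cardiomyocyte list that the CM libraries showed, over few FB counts of either gene. The part of cardiomyocyte RNA in these counts was not tested. Reads of the antisense transcript over the 3′ part of Cav3 had no row of their own, and their part in the Cav3 counts was not tested.

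**Figure D2:**
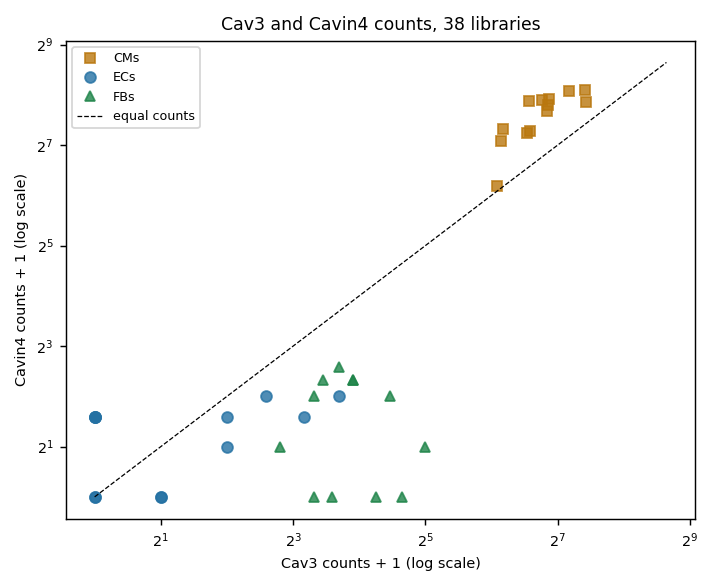
Counts of Cav3 (x axis) and Cavin4 (y axis) plus 1 on log scales in each of the 38 libraries; squares are CMs, circles ECs and triangles FBs, and the dashed line marks equal counts. All 13 CM libraries lie above the line and all 12 FB libraries lie below it.

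Cavin1, which every caveola needs, had the smallest range of Sham means between populations. Its Sham levels were 2453, 1368, 1092 and 1263 CPM in ECs, 946, 1035, 854 and 937 CPM in CMs and 1175, 694, 843 and 549 CPM in FBs. EC replicate 1, the only Sham EC library of sample-sheet run 3, was far above the other EC libraries, and the remaining 3 reached into the range of the FBs. The log2 fold change was 0.71 ± 0.25 for ECs against CMs (edgeR FDR 0.0177) and 0.92 ± 0.26 for ECs against FBs (FDR 0.00346), and FBs and CMs did not differ detectably (-0.21, 95% interval -0.72 to 0.30). Without EC replicate 1 the calls were lost, with log2 fold changes of 0.40 (FDR 0.192) and 0.61 (FDR 0.0598). On each population's own scale, Sham Cavin1 ran from 373 to 459 CPM in CMs and from 813 to 1729 CPM in FBs. The comparison of FBs with CMs therefore depends on the joint scale. It also depends on the model, with a log2 fold change of 0.42 when the sample-sheet run was added (edgeR FDR 0.0952).

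Cavin2, a cavin that bends membranes and is prominent in endothelium, showed a clear order with ECs above CMs above FBs. Its Sham levels were 2530, 1974, 1852 and 1764 CPM in ECs, 661, 859, 594 and 586 CPM in CMs and 238, 184, 187 and 112 CPM in FBs. The populations did not overlap. The log2 fold change was 1.59 ± 0.32 for ECs against CMs (edgeR FDR 5.91e-05), 3.50 ± 0.34 for ECs against FBs (FDR 9.82e-11) and -1.91 ± 0.32 for FBs against CMs (FDR 5.88e-06).

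Cavin3, which binds protein kinase C delta, was the member with the highest level in FBs. Sham FBs had 108, 116, 120.5 and 194 CPM, Sham ECs 56.9, 78.1, 70.5 and 63.9 CPM and Sham CMs 41.8, 43.8, 40.7 and 44.8 CPM. Each FB library was above each EC library, and each EC library above each CM library, with FB replicate 4 apart from the other FBs. The log2 fold change was 1.65 ± 0.25 for FBs against CMs (edgeR FDR 9.34e-07) and -0.9996 ± 0.24 for ECs against FBs (FDR 0.000900). The smaller difference between ECs and CMs, 0.66 ± 0.25 (FDR 0.0281), lost its call without any of CM replicates 1 and 3 and EC replicates 2 and 3 in turn (FDR 0.0554, 0.0594, 0.0773 and 0.0538), and when the sample-sheet run was added to the model (FDR 0.173).

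Ehd2 was at 158, 149, 155 and 117 CPM in Sham ECs, 41.8, 45.4, 32.1 and 45.4 CPM in Sham CMs and 50.2, 40.6, 52.3 and 36.9 CPM in Sham FBs. The ECs stood apart, and the CM and FB libraries overlapped. The log2 fold change was 1.81 ± 0.22 for ECs against CMs (edgeR FDR 5.43e-09) and 1.69 ± 0.21 for ECs against FBs (FDR 1.82e-08). That of FBs against CMs was 0.12 (95% interval -0.32 to 0.57) and depends on the joint scale. On each population's own scale, Sham Ehd2 ran from 14.0 to 20.1 CPM in CMs and from 54.6 to 76.8 CPM in FBs.

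**Figure D3:**
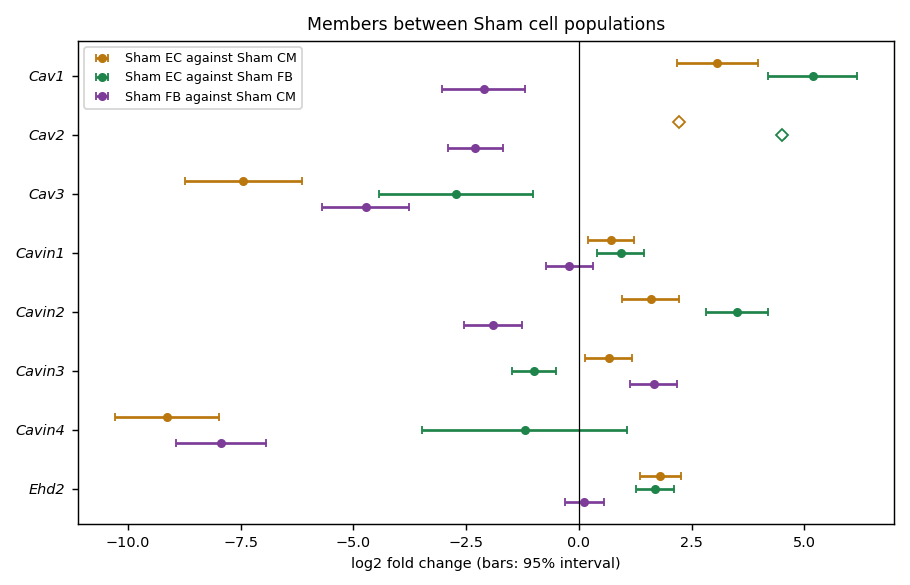
Log2 fold change of each member between Sham populations, with 95% intervals from edgeR's quasi-likelihood fit; colours are the 3 comparisons, and open diamonds without bars are the descriptive values of Cav2. Cav3 and Cavin4 lie far to the left for ECs and FBs against CMs. The bars of Cavin4, and of Cav3 where ECs enter, are not read, because these genes were too low to be fitted in those cells alone. Cav1 and Cavin2 lie to the right for ECs against both other populations. Cavin3 is the only member to the right for FBs against CMs with an interval clear of 0.

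The order of levels over the 9 groups was compared with that of every other gene, by the root mean square difference of centred log2 CPM over the 9 group means. The genes nearest to Cav1 were Clec14a (0.21 log2 units), Prkch (0.24) and Cd93 (0.24), and those nearest to Cav2 were Etl4 (0.15), Abi3 (0.17) and Dach1 (0.17). Cav3 was nearest to Alpk3 (0.14), Homer2 (0.25) and Oxct1 (0.30), and Cavin4 to Perm1 (0.22), Tpm1 (0.24) and Lmod3 (0.24). Cavin2 was nearest to Nherf2 (0.17), Sncaip (0.18) and Adgrl2 (0.19). The members with the flatter patterns had closer matches: Cavin1 with Plod1 (0.094), Xpr1 (0.11) and Cep295 (0.12), Cavin3 with Cerkl (0.12), Casp12 (0.13) and Mbtps1 (0.14), and Ehd2 with Parp14 (0.11), Foxp1 (0.12) and Utrn (0.14). No caveola member was among the 3 nearest genes of another.

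A list of 21 other genes of caveolae and membrane rafts was followed beside the members, and 20 of them could be tested between populations. In Sham ECs against Sham CMs, 6 were higher and 6 lower by edgeR, where 24.8% and 28.1% of all genes were. Pacsin3, a membrane-bending protein of muscle caveolae, was lower (log2 fold change -5.03 ± 0.38, FDR 3.14e-14), and the raft proteins Flot1 (-2.55 ± 0.22, FDR 9.79e-13) and Flot2 (-1.68 ± 0.27, FDR 1.71e-06) and the Ehd2 paralog Ehd4 (-1.93 ± 0.26, FDR 3.34e-08) were also lower. In ECs against FBs 8 were higher and 8 lower, where 17.6% and 20.2% of all genes were. The membrane-repair protein Dysf (4.15 ± 0.34, FDR 9.79e-13), the nitric oxide synthase Nos3 (5.67 ± 0.62, FDR 4.36e-09) and the fatty acid receptor Cd36 (5.67 ± 0.63, FDR 9.24e-09) were higher. In FBs against CMs 8 were higher and 8 lower, where 22.7% and 24.5% of all genes were. Ehd4 (-3.70 ± 0.28, FDR 1.15e-14), Dysf (-3.09 ± 0.34, FDR 6.83e-10), Pacsin3 (-2.98 ± 0.33, FDR 6.83e-10) and Cd36 (-4.63 ± 0.60, FDR 1.67e-07) were among those lower.

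The difference that the family was selected on is that between Control-AMI and Sham ECs. Cav2 was at 99.6, 117, 126 and 104 CPM in the Sham replicates and at 56.4, 62.9, 72.8 and 76.9 CPM in the Control-AMI replicates. The groups did not overlap, the mean was 112 ± 12.1 against 67.3 ± 9.31 CPM (SD, n = 4 each), and the fitted log2 fold change was -0.76. Cav1, its neighbour on the chromosome and its partner in the membrane, was at 297, 577, 637 and 542 CPM in Sham and at 213, 314, 315 and 231 CPM in Control-AMI, a log2 fold change of -0.96. Here the groups overlapped through Sham replicate 1, which was below Control-AMI replicates 2 and 3. That library was of sample-sheet run 3 (runs are described with the CM results) and the other Sham ECs of run 2. Control-AMI replicates 2 and 3 were also of run 2, and replicates 1 and 4 of run 4. No Sham EC library was of run 4, the run of all Sham CMs.

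The other members of the EC coat differed less. Cavin2 stood at 2030 ± 344 CPM in Sham against 1451 ± 276 CPM in Control-AMI (log2 fold change -0.51), Ehd2 stood at 145 ± 18.8 against 118 ± 11.01 CPM (-0.33), Cavin1 at 1544 ± 617 against 1412 ± 243 CPM (-0.16) and Cavin3 at 67.3 ± 9.04 against 75.9 ± 11.04 CPM (0.15; SD, n = 4 each). Of the 6 members abundant enough to be fitted, 2 (Cav1 and Cav2) were below the FDR threshold and 6.56% of all 10438 genes were, but the comparison chose the family and nothing is read from that count. Cav3 had 8, 0, 0 and 12 counts in the Control-AMI replicates and Cavin4 2, 2, 2 and 3, and neither was fitted. Among genes abundant enough to be fitted, the nearest chromosomal neighbours of the pair differed in direction. Their log2 fold changes were -0.53 for Mdfic, 0.64 for Tes, -0.09 for Capza2 and 0.19 for St7.

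The endothelial markers moved with Cav1 and Cav2. Their summed level was 9069 to 9872 CPM in Sham ECs and 4731 to 6441 CPM in Control-AMI ECs, with all 10 markers fitted below 0 and a median log2 fold change of -0.57. Summed fibroblast markers ran the other way, at 415 to 1080 CPM in Sham and 1453 to 5377 CPM in Control-AMI. Leukocyte markers were at 6.44 to 25.5 CPM in Sham and 23.9 to 497 CPM in Control-AMI, the highest in replicate 3, and mesothelial markers at 34.8 to 52.6 and 60.8 to 88.2 CPM. Per 100 counts of the endothelial list, Cav2 was 1.19 ± 0.122 in Sham and 1.15 ± 0.132 in Control-AMI, with ranges of 1.03 to 1.29 and 0.981 to 1.30 (SD, n = 4 each). Cav1 on the same measure was 5.47 ± 1.60 and 4.54 ± 0.474, with ranges of 3.08 to 6.45 and 3.89 to 4.90. Set against the endothelial list, which was itself lower in Control-AMI, the Cav2 libraries of the groups overlapped. For Cav1, Sham replicates 2, 3 and 4 (6.36, 6.45 and 5.98) lay above every Control-AMI library. Sham replicate 1 (3.08), the only Sham EC library of run 3, lay below them all. The part of endothelial RNA in the lower Cav1 and Cav2 was not tested. Fabp4 gave 36.2% of the list's counts in ECs.

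**Figure D4:**
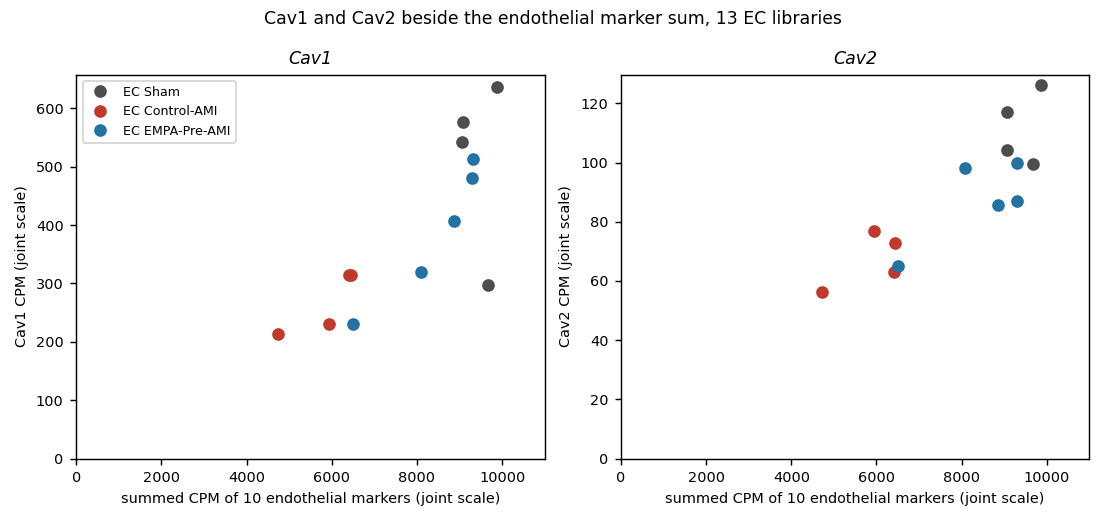
Cav1 (left) and Cav2 (right) CPM against the summed CPM of 10 endothelial markers in the 13 EC libraries, all on the joint scale; each point is a library, coloured by group. The 4 Control-AMI libraries lie at marker sums of 4731 to 6441 CPM with Cav2 at 56.4 to 76.9 CPM, a range that also holds 1 EMPA–Pre-AMI library (65.2 CPM), and the Sham library with a Cav1 of 297 CPM lies far under the other Sham libraries at a like marker sum.

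EMPA–Pre-AMI ECs held intermediate levels of both caveolins. Cav2 was at 87.1, 65.2, 99.8, 98.1 and 85.6 CPM, between the Sham and the Control-AMI libraries except for replicate 2, which lay among the Control-AMI libraries, and replicate 3, which just passed the lowest Sham library. Its fitted log2 fold change was 0.40 against Control-AMI and -0.36 against Sham, as a description. Cav1 was at 513, 231, 480, 320 and 407 CPM, overlapping both other groups. Against Control-AMI its log2 fold change was 0.57 ± 0.24 (edgeR FDR 0.324), and against Sham -0.39 ± 0.24 (FDR 0.490).

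None of the 5 members tested beside Cav2 passed edgeR's test in either EMPA comparison of ECs, where 2.63% of all genes differed between EMPA–Pre-AMI and Control-AMI and 2.71% between EMPA–Pre-AMI and Sham. At an unadjusted p under 0.05 the counts were 1 of 5 (Cav1) against Control-AMI, beside 1274 of 10438 genes, and 0 of 5 against Sham, beside 1475 genes, and DESeq2 called 0 members in both. Both comparisons share libraries with the one that chose the family. Against Control-AMI the log2 fold change was 0.27 for Cavin2 (95% interval -0.06 to 0.59), 0.17 for Ehd2 (-0.18 to 0.53), -0.08 for Cavin3 (-0.40 to 0.25) and 0.19 for Cavin1 (-0.23 to 0.62). Ehd2 replicate 2 of EMPA–Pre-AMI was at 76.8 CPM where the other 4 were at 131 to 151 CPM, and that library also had the lowest Cav1, Cav2 and endothelial marker sum (6507 CPM) of its group. Per 100 endothelial-list counts the EMPA–Pre-AMI ECs held 1.04 ± 0.111 counts of Cav2 and 4.55 ± 0.812 of Cav1 (SD, n = 5). The marker sum of the group was 6507 to 9308 CPM and its fibroblast sum 362 to 735 CPM. Both ranges overlapped Sham and lay outside Control-AMI.

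Around the members, Dysf was higher in EMPA–Pre-AMI than in Control-AMI ECs (log2 fold change 0.79 ± 0.21, edgeR FDR 0.0390). It was the only change among 18 genes of the caveola and raft list, where 2.63% of all genes passed. None of the 18 passed against Sham, where 2.71% of all genes did. Tes, the nearest of these neighbours before Cav2, exceeded its Sham level in the EMPA–Pre-AMI ECs (log2 fold change 0.997 ± 0.17, FDR 0.00134). It stood at 0.64 in Control-AMI against Sham, and EMPA–Pre-AMI against Control-AMI did not pass (0.35 ± 0.17, edgeR FDR 0.400). For EMPA–Pre-AMI against Sham, Mdfic stood at -0.14 ± 0.17, Capza2 at 0.09 ± 0.21 and St7 at 0.94 ± 0.58, and none of these passed.

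**Figure D5:**
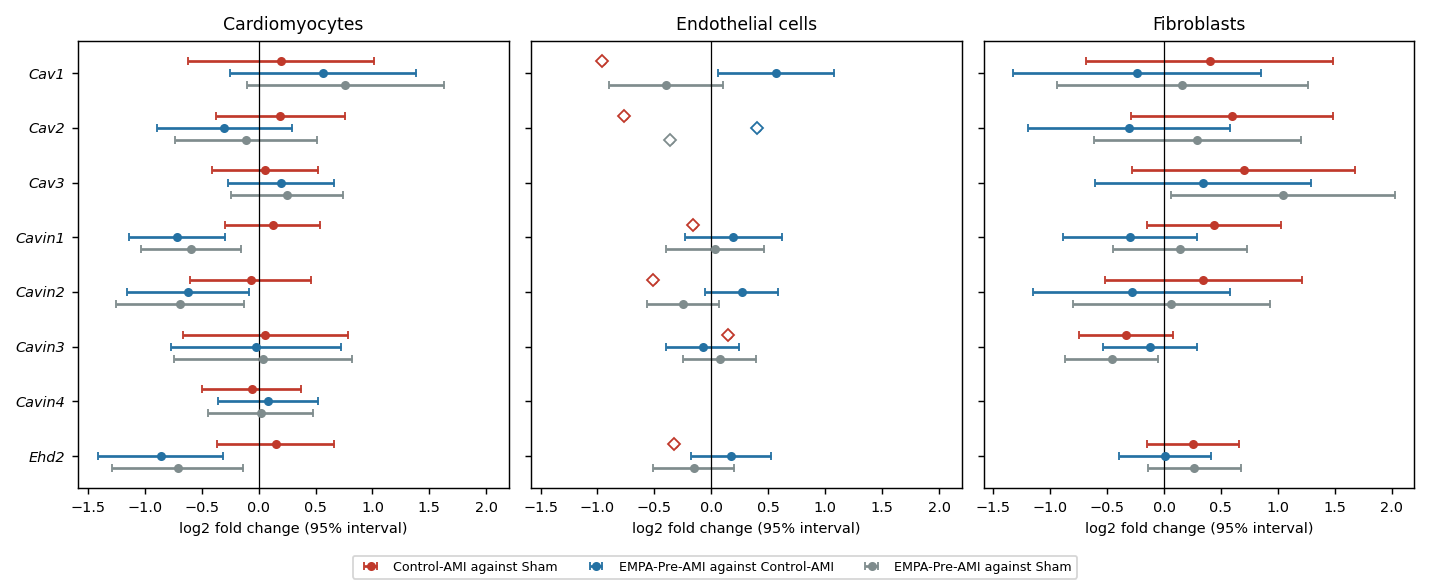
Log2 fold change of each member within CMs, ECs and FBs for the 3 comparisons of treatment groups, with 95% intervals from edgeR's quasi-likelihood fit; open diamonds without bars are the descriptive EC values. Cavin1, Cavin2 and Ehd2 lie to the left for EMPA–Pre-AMI in CMs, where no member passed an FDR of 0.05, and members without a point were too low to be fitted.

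In cardiomyocytes, infarction left no detectable difference in the coat. None of the 8 members passed the test between Control-AMI and Sham, where 0.0655% of 9167 genes did. None had an unadjusted p under 0.05 by edgeR, and DESeq2 called 0. The muscle caveolin Cav3 was at 69.4, 78.2, 89.1 and 66.04 CPM in Sham and 74.0, 53.0, 130, 66.2 and 68.6 CPM in Control-AMI (log2 fold change 0.06, 95% interval -0.41 to 0.52, edgeR FDR 1.00). Cavin4 was at 153, 148, 159 and 126 CPM in Sham and 152, 118, 208, 108 and 112 CPM in Control-AMI (-0.06, -0.50 to 0.37). Control-AMI replicate 3 was the highest library of its group for both muscle members, and the groups overlapped. Cavin1 stood at 0.12 (-0.29 to 0.54) and Cavin2 at -0.07 (-0.60 to 0.46), and the interval was widest for Cav1 (0.20, -0.62 to 1.01), whose Control-AMI libraries ran from 28.96 to 102 CPM.

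With EMPA, 3 members that are not restricted to muscle had lower values in CMs, short of the FDR threshold. None of the 8 passed between EMPA–Pre-AMI and Control-AMI, where 0.0218% of all genes did, and none between EMPA–Pre-AMI and Sham, where 0.338% did. At an unadjusted p under 0.05, 3 of the 8 differed in each (Cavin1, Cavin2 and Ehd2), beside 2295 and 1672 of 9167 genes. DESeq2 called 2 and 0 members, beside 880 and 201 genes. Cavin1 was at 695, 348, 561 and 815 CPM in EMPA–Pre-AMI and at 889, 999, 1206, 1083 and 905 CPM in Control-AMI. All 4 EMPA–Pre-AMI libraries were below all 5 Control-AMI libraries and below the Sham libraries, and the log2 fold change was -0.72 ± 0.20 against Control-AMI (edgeR FDR 0.0592) and -0.59 ± 0.21 against Sham (FDR 0.181). Ehd2 was at 27.03, 16.4, 16.7 and 37.2 CPM against 37.002, 47.8, 45.7, 61.1 and 34.7 CPM, with a log2 fold change of -0.86 ± 0.26 (FDR 0.0739). EMPA–Pre-AMI replicate 4 was the only library of its group to reach into the Control-AMI range. Cavin2 was at 533, 217, 271 and 603 CPM against 628, 851, 717, 492 and 505 CPM (-0.62 ± 0.26, FDR 0.148), with an overlap of replicates 1 and 4.

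Sample-sheet position, marker sums and the choice of model were set beside these CM values. The labels' sample-sheet positions fall into 4 runs, and all 9 Sham and Control-AMI CM libraries were of run 4, as was EMPA–Pre-AMI replicate 4, whereas the other EMPA–Pre-AMI libraries were of runs 2 and 3. What a run marks is not given in the sources used here, and the study's supplement states that all libraries were prepared and sequenced together. With a term for the run, the log2 fold change against Control-AMI was -0.35 for Cavin1, -0.32 for Ehd2 and -0.11 for Cavin2 (FDR 0.999 each), and run and treatment can hardly be told apart with 1 EMPA–Pre-AMI library in run 4. Without replicate 4, Cavin1 (-0.87, FDR 0.0114), Ehd2 (-1.13, FDR 0.0123) and Cavin2 (-0.85, FDR 0.0368) passed the threshold, as did 1498 of 9470 genes, where 2 of 9167 passed with it. The summed fibroblast markers were 867, 2352, 468 and 2640 CPM in the EMPA–Pre-AMI libraries and 1952 to 4353 CPM in Control-AMI, and the summed mural markers 875 to 1361 CPM and 850 to 1371 CPM. The fibroblast sums of EMPA–Pre-AMI replicates 1 and 3 lay below the Control-AMI range, and those of replicates 2 and 4 within it. Replicate 2 had the lowest Cavin1, Ehd2 and Cavin2 of its group. The summed endothelial markers overlapped, at 1138 to 2646 CPM in EMPA–Pre-AMI, highest in replicate 2, and 1394 to 2656 CPM in Control-AMI. Of 9 fitted endothelial markers 1 was above 0 and the median log2 fold change was -0.47, and of 9 fitted fibroblast markers 0 were above 0 and the median was -1.06. The part of fibroblast and endothelial RNA in the lower Cavin1, Ehd2 and Cavin2 was not tested.

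The muscle members did not share that shift. In EMPA–Pre-AMI CMs, Cav3 was at 78.8, 78.5, 110 and 75.9 CPM (log2 fold change against Control-AMI 0.19, 95% interval -0.27 to 0.66) and Cavin4 at 151, 84.3, 148 and 189 CPM (0.08, -0.36 to 0.52). Cav1 was at 105.8, 165, 60.3 and 59.8 CPM (0.56, -0.25 to 1.38) and Cav2 at 34.9, 15.2, 17.3 and 19.4 CPM (-0.30, -0.89 to 0.29), and each overlapped Control-AMI. With the run term the log2 fold change turned to -0.25 for Cav1 and -0.07 for Cav3. Cav1 stood at 5.37 ± 0.735 per 100 endothelial-list counts in EMPA–Pre-AMI (SD, n = 4), with all 4 libraries above the highest of the Sham and Control-AMI libraries (4.45 to 6.24 against 2.08 to 4.20). Cav2 on that measure overlapped between the groups. Cavin3 ran from 20.3 to 79.6 CPM with EMPA and from 26.2 to 68.3 CPM in Control-AMI. None of 18 fitted genes of the caveola and raft list passed in any of the 3 CM comparisons.

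In fibroblasts no member passed the test in any comparison, and Cavin4 was too low to be fitted. The 7 fitted members gave 0 calls between Control-AMI and Sham, where 4.16% of 10691 genes passed, 0 between EMPA–Pre-AMI and Control-AMI, where 0% did, and 0 between EMPA–Pre-AMI and Sham, where 5.11% did. By edgeR's unadjusted p under 0.05 the counts of members were 0, 0 and 2 (Cav3 and Cavin3), beside 2057, 170 and 2225 of 10691 genes, and DESeq2 called 0 members in each. Over all genes DESeq2 also gave 0 calls between EMPA–Pre-AMI and Control-AMI. Cavin1 was at 1175, 694, 843 and 549 CPM in Sham, 1341, 1347, 1188 and 590 CPM in Control-AMI and 919, 1082, 1015 and 600 CPM in EMPA–Pre-AMI. Replicate 4 was the lowest library in each group, and the groups overlapped (log2 fold change of Control-AMI against Sham 0.44, 95% interval -0.15 to 1.03). All 3 replicate 4 libraries were of sample-sheet run 1, as were Sham replicates 2 and 3. Cavin1 was at 549 to 843 CPM in the FB libraries of run 1 and at 1015 to 1347 CPM in those of run 4. With the run term the log2 fold change of Control-AMI against Sham turned to -0.04 (edgeR FDR 0.914). Within run 4, which holds 1 library of Sham, 3 of Control-AMI and 2 of EMPA–Pre-AMI, no member passed either, with the lone Sham library assumed to vary like the other groups.

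Cavin3, the member highest in FBs, was at 108, 116, 120.5 and 194 CPM in Sham, 110, 113, 112 and 97.3 CPM in Control-AMI and 115, 104, 95.3 and 79.8 CPM in EMPA–Pre-AMI. Its log2 fold change against Sham was -0.34 ± 0.19 in Control-AMI (edgeR FDR 0.364) and -0.46 ± 0.19 in EMPA–Pre-AMI (FDR 0.191). Sham replicate 4 was far above the remaining Sham libraries, which overlapped both other groups. Cav3 in FBs had 9, 6, 14 and 14 counts in Sham, 10, 31, 9 and 18 in Control-AMI and 11, 21, 12 and 24 in EMPA–Pre-AMI, and its largest log2 fold change, 1.04 ± 0.47 for EMPA–Pre-AMI against Sham, had an FDR of 0.216.

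Cav1 and Cav2 were low in FBs. Cav1 ran from 5.77 to 30.0 CPM in Sham, from 14.6 to 23.4 CPM in Control-AMI and from 4.58 to 21.6 CPM in EMPA–Pre-AMI, and the endothelial marker sum ran from 105.7 to 484, 164 to 575 and 122 to 604 CPM in the same groups. The 95% intervals of Control-AMI against Sham were -0.68 to 1.48 for Cav1 and -0.29 to 1.49 for Cav2. Ehd2 was at 36.9 to 52.3, 44.0 to 66.9 and 45.2 to 63.2 CPM, and Cavin2 at 112 to 238, 115 to 291 and 76.5 to 287 CPM, with overlap throughout. Cavin2 split by sample-sheet run, at 76.5 to 187 CPM in run 1 and 238 to 291 CPM in run 4. Its log2 fold change of Control-AMI against Sham was 0.35, and -0.33 with the run term (edgeR FDR 0.451).

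Whether EMPA acted differently on the members in different cells was tested as a difference of log2 fold changes over all 38 libraries, and no member passed. At an unadjusted p under 0.05 the counts were 3 of 7 between ECs and CMs (Cavin1, Cavin2 and Ehd2), 1 of 7 between ECs and FBs (Cav3) and 1 of 8 between FBs and CMs (Ehd2), with Cav2 set aside where ECs enter. Over all 12085 genes the counts at that p were 1993, 978 and 1841. Cav3 was too low to be fitted in ECs alone, and Cavin4 in ECs or FBs alone. Their values in differences that involve those cells are descriptions, and the Cav3 count between ECs and FBs supports nothing. Between ECs and CMs, where 0.993% of 12085 genes passed, the smallest FDR was that of Ehd2, whose EMPA–Pre-AMI against Control-AMI value was 1.04 ± 0.31 higher in ECs (edgeR FDR 0.0871). Cavin1 (0.92 ± 0.34, FDR 0.177) and Cavin2 (0.89 ± 0.42, FDR 0.276) had the same sign. Cav3, with 0 to 12 counts in each EC library, had the largest value in size (-1.80), as a description. Between ECs and FBs 0 members and 2.04% of all genes passed, and between FBs and CMs 0 members and 0.00827%, with Ehd2 at 0.90 ± 0.32 (FDR 0.181). The effect of infarction itself differed between FBs and CMs for none of the 8 members (0 also at an unadjusted p under 0.05 and with DESeq2) and for 0.331% of all genes. These 8 include Cavin4, whose absence of a call is not read because of its low FB counts. The EMPA differences that involve CMs rest on the CM libraries whose sample-sheet runs differ between the groups.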

How the data were processed

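The authors made 3′ tag libraries from the RNA of 38 cell samples, each from 2 pooled hearts, trimmed the reads with cutadapt 2.8 and quantified them with Salmon on GRCm39, per the labels and the study's methods. The deposited values are estimated counts per Ensembl gene. All 304 member values were whole, and other values were rounded here. Of 35682 genes, 35407 had a symbol in GENCODE vM39. Members and lists were chosen with earlier results of these data known.

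Counts were fitted with edgeR 4.0.16 in R 4.3.3: filterByExpr with a minimum count of 10, TMM factors and robust quasi-likelihood tests with Benjamini-Hochberg adjustment over all genes tested, called at an FDR below 0.05. Comparisons between treatments were fitted within each population, those between populations and the differences of effects over all 38 libraries. CPM in the text uses the joint TMM factors. On this scale CM values are 1.94 to 2.32 times, EC values 0.619 to 0.643 times and FB values 0.670 to 0.689 times those on the population's own scale, so folds from the fits can differ slightly from ratios of means. Errors of log2 fold changes are standard errors. Intervals of count ratios are exact at 95% and, like the floor of 3 counts per library, cover counting error only. The text names all 8 members, up to 4 of the 21 caveola and raft genes that passed in a comparison (by smallest FDR) and the 3 genes most like each member. It also names the 2 genes nearest the Cav2 and Cav1 pair on either side, among genes that passed the filter of a fit. Results of 1 listed gene are not reported here. Marker lists of 8 cell types were summed, and those of cardiomyocytes, endothelium, fibroblasts, mural cells, leukocytes and mesothelium are given. Lymphatic endothelial markers stood at 79.6 to 855 CPM and adipocyte markers at 0 to 151 CPM over all libraries. The fits were tested on simulated data. Over 62 replicate pairs the mean squared difference was 4.60 to 87.1 times the counting error, so no library was counted as a copy of another. The labels do not state how samples were allotted to replicates, and the study's methods describe independent experiments within a population. With 10 mice per group and 2 hearts per library, populations share animals, which the fits over 38 libraries do not model.

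Alternatives were DESeq2 1.42.0, RLE factors, no robust estimation, other filters, fits on the 2 groups of each comparison alone, blocking on replicate number, a sample-sheet run term or single runs, no mitochondrially encoded genes, and each library left out in turn.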

Additional observations from a re-analysis of the deposited data

Results flagged for a closer look

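Of 64 member and group sets of 4 or 5 libraries that had a library with at least 10 counts, 5 held a library far from the others by Dixon's criterion, and chance gives about 1 in 20. Cav1 was at 4.58 CPM in FB EMPA–Pre-AMI replicate 1, where the other 3 libraries of the group were at 18.96 to 21.6 CPM. Cav3 was at 130 CPM in CM Control-AMI replicate 3, where the other 4 were at 53.0 to 74.0 CPM, and at 110 CPM in CM EMPA–Pre-AMI replicate 3, where the other 3 were at 75.9 to 78.8 CPM. Cavin3 was at 194 CPM in FB Sham replicate 4, where the other 3 were at 108 to 120.5 CPM. Ehd2 was at 76.8 CPM in EC EMPA–Pre-AMI replicate 2, where the other 4 were at 131 to 151 CPM.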

How the results depend on the processing

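Of 287 values of calls per comparison and of the Cav2 level under an alternative, 273 stayed within 1.5 times the reported count or within 1 SD of the reported level. This tally includes the comparison that chose the family, and a reported count of 0 that stayed at 0 was taken as unchanged. It is therefore not read as a measure of stability. In EMPA–Pre-AMI against Control-AMI CMs, 0 members passed as reported, 2 passed with DESeq2 (Cavin1 and Ehd2, both lower), and 1 with at least 10 counts in every library (Cavin1). Leaving out a library gave 0 to 3 calls there and 0 to 3 in EMPA–Pre-AMI against Sham CMs, the 3 being those without EMPA–Pre-AMI replicate 4. In Control-AMI against Sham ECs, which chose the family, the count past the threshold was 2, with the sample-sheet run term 0, within run 2 alone 0, and with a library left out 1 to 3. It is given as part of the selection, and nothing about stability is read from it. The descriptive Cav2 log2 fold change in that comparison ranged from -0.83 to -0.68 without 1 library and was -0.74 with the run term and -0.78 in run 2. Requiring at least 10 counts in every library left 5 calls of 5 members fitted in Sham ECs against Sham CMs (8 of 8 in the whole fit, counting Cav2, which the report sets aside to give 7 of 7) and 3 of 5 in Sham FBs against Sham CMs (6 of 8 as reported), because Cav2, Cav3 and Cavin4 were not fitted. DESeq2 gave 1 call in the difference of EMPA effects between ECs and CMs (Ehd2, log2 difference 1.00, FDR 0.0383), where 0 were reported. With the replicate block the counts of calls were those reported in all 16 comparisons, and label numbers did not pair the samples: deviations from the group means correlated above 0.1 in 1 of 12 same-numbered pairs of CM libraries, 3 of 12 of EC and 6 of 12 of FB, and 3 of 13, 4 of 13 and 5 of 12 libraries correlated best with their own number. Over 1891 single-member values, 18 lost a call, 13 gained 1 and 0 changed sign with a call, and 75 changed sign without a call on either side. Depth limits Cav3 and Cavin4 in ECs and Cavin4 in FBs.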
